A study of Mus musculus with 6 samples.

Results

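Pericytes and smooth muscle cells of tumor vessels were taken from a single-cell data set of mouse tumors by their transcripts. A cell counted as a member when at least 3 of 7 mural genes had a transcript: Rgs5, Notch3, Cspg4, Myh11, Kcnj8, Higd1b and Ndufa4l2. It also had to have no transcript of Pecam1 or Cdh5 (endothelium), Ptprc (immune cells), or Epcam or Krt7 (epithelium). Of the 14818 deposited cells, 13768 had at least 500 genes and under 15% mitochondrial counts and were kept, and 54 of them were members. That is 0.392% of the kept cells, with an exact 95% binomial interval of 0.295 to 0.511%. The members were thus chosen by the detection of these 7 genes and the absence of these 5, whose values are given only as a description.

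Pericytes and vascular smooth muscle cells, together called mural cells, wrap the endothelial tube of blood vessels. Pericytes lie within the basement membrane of capillaries and are recruited by platelet-derived growth factor from endothelium, acting on the receptor PDGFRB. Smooth muscle cells cover arterioles and larger vessels, carry more contractile protein, and set vessel width in answer to endothelin, angiotensin and nitric oxide. Notch signalling, mainly through NOTCH3 in mural cells and JAG1 as a ligand, maintains their identity. In tumors this coat is often loosely attached.

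The tumors grew from MOC-2, a head and neck squamous carcinoma line placed under the skin of male mice, whose strain and age the labels do not give. They list 3 tumors given vehicle and 3 given an unnamed treatment, all taken 24 h after injection into the tumor. The protocols name copper(II) diethyldithiocarbamate, clodronate, L-NMMA, Nw-Hydroxy-nor-L-arginine, epcadostat, galunisertib, R848, 5'ppp-dsRNA/Lyovec, 2'3'-c-di-AM(PS)2, 2-C1-IB-MECA and 4-1BB ligand, without saying which of them the treated tumors received. Reagents were dissolved in DMSO or water. Live cells were sorted, marked with a tag per tumor and pooled. The matrix carries a suffix from 1 to 6 on each barcode, here called a barcode set, but no label ties a set to a tumor. The pool was therefore 1 sample without replicates: treated and vehicle tumors were not compared, no test was made, and the intervals cover counting error only.

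The mice were male, while earlier results of these data had shown carcinoma cells rich in Xist, the RNA that coats an inactive X chromosome. Xist and 4 Y-linked genes, which the rule does not use, therefore bear on which members are host cells. Of the 54 members, 49 had no Xist transcript (90.7%, 79.7 to 96.9%), and these are described below as the members without Xist. The other 5 had Xist, 3 of them with 1 molecule and 2 with at least 5. The members without Xist held 244 CPM (counts scaled to a library size of 1e6) of the Y-linked sum, against 142 CPM in Ptprc-positive cells and 23.04 CPM in all other kept cells. Xist was also seen in 463 of the 2904 Ptprc-positive cells, at 440 CPM in that class. Of these cells 156 had a Y-linked transcript as well. Carcinoma-gated cells, used below, are the 6850 cells with at least 5 Xist molecules and no Y-linked or Ptprc transcript. The gate itself thus sets their Xist. A Y-linked transcript was seen in 28 of the 49, while 21 had neither Xist nor a Y-linked transcript. These 49 cells held 299157 counts (UMIs, single captured molecules), from 1011 to 21627 per cell with a median of 5011, and a median of 2115 genes.

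They were set beside all other kept cells and the cell classes nearest to them. Fibroblast-gated cells (559) had at least 3 of 9 fibroblast genes, at most 2 of the 7 mural genes and none of the 5 excluded genes or Xist. Endothelial-gated cells (60) had at least 3 of 9 endothelial genes, Pecam1 or Cdh5, and no Ptprc, Epcam, Krt7 or Xist. Y-linked counts stood at 60.9 CPM in fibroblast-gated and at 191 CPM in endothelial-gated cells. Only 31.1% of the fibroblast-gated cells had a Y-linked transcript, so carcinoma cells without a captured Xist transcript cannot be told apart from host fibroblasts among the rest. For that reason values in the 174 fibroblast-gated cells with a Y-linked transcript are added for some of the genes and lists. Of the 60 endothelial-gated cells 28 had a Y-linked transcript, and none of the 28 held more than 25346 UMIs. Of the 482056 UMIs of all 60 cells, 96111 came from 1 cell. In these 28, 6 mesenchymal carcinoma markers summed to 112 CPM against 3309 CPM in all 60, and 6 epithelial markers to 4.16 against 458 CPM. Carcinoma cells among the other endothelial-gated cells cannot be told apart either, and folds over this class are over all 60 cells.

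The most abundant of the 7 genes of the rule was Rgs5, a regulator of G-protein signalling and a common pericyte marker (chromosome 1, 169655501 to 169695813, mm10). It stood at 7992 CPM (7675 to 8319) and was present in 49 of 49 cells. The barcode sets ran from 5396 to 13699.9 CPM. In fibroblast-gated, endothelial-gated and carcinoma-gated cells Rgs5 was at 4.92, 18.7 and 12.7 CPM. The receptor gene Notch3 stood at 518 CPM and the potassium channel gene Kcnj8 at 247 CPM. Ndufa4l2 and Higd1b, nuclear genes that encode mitochondrial proteins, stood at 465 and 458 CPM. The smooth muscle myosin gene Myh11 stood at 244 CPM and the proteoglycan gene Cspg4, which encodes NG2, at 147 CPM. Exactly 3, 4, 5, 6 and 7 of these genes were seen in 10, 15, 13, 12 and 4 members. The 10 members just inside the threshold had 4832 CPM of Rgs5 and 698 CPM of Abcc9, with a median of 2996.5 UMIs, and 2 of them carried Xist. The 154 cells just outside it, with 2 of the genes, had 86.7 and 7.84 CPM, and 87.7% of them carried Xist. Their median was 14411.5 UMIs. Rgs5 was among the 2 genes in 48 of them, at 328 CPM in those. As a gene of the rule, Rgs5 differs across the threshold in part by the gate itself.

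The label was set beside genes that the rule did not use, as a description. Of 25 further mural genes, the members without Xist had a median of 12 per cell (6 to 18), against 2 (0 to 7) in fibroblast-gated, 2 (0 to 11) in endothelial-gated and 1 (0 to 10) in carcinoma-gated cells. The 5 members with Xist had a median of 6 (0 to 9). The rule itself put Pecam1, Cdh5, Ptprc, Epcam and Krt7 at 0, and the classes set beside the members were gated on some of the genes listed here. Of 9 endothelial markers Cldn5, Kdr, Tek and Plvap were at 0 as well, and the list summed to 344 CPM (116 to 643 over the sets) against 5261 CPM in endothelial-gated cells. Of 7 immune markers 2 were seen, with Cd3e, Cd68, Lyz2 and C1qa at 0 besides Ptprc, at 20.1 CPM (0 to 132 over the sets) against 4318 CPM in Ptprc-positive cells. Fibroblast markers were seen for 8 of 9 genes, with Pi16 at 0. They summed to 1100 CPM (193 to 3444 over the sets, median 338). Fibroblast-gated cells had 3440 CPM, and those with a Y-linked transcript 6155 CPM. Of 6 epithelial markers 3 were seen, with Krt5 at 0, at 114 CPM (0 to 452), and 6 of 6 mesenchymal carcinoma markers, at 251 CPM (46.5 to 1155). In carcinoma-gated cells these lists stood at 949 and 733 CPM. Schwann, skeletal muscle and erythroid lists each held 1 detected gene at 3.34 CPM. The part of free or mixed-in RNA in these low levels was not tested. No member without Xist had a doublet score of 0.25 or more (0.0505 to 0.201), and each carried the main tag of its own barcode set. Their median score, 0.0967, was above the 0.0529 of all kept cells.

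Members were spread over all 6 barcode sets, with 15, 11, 11, 5, 9 and 3 cells in sets 1 to 6. Their share of kept cells ran from 0.132% in set 4 to 1.32% in set 3, with a median of 0.415%. Set 3 was the high one and set 4 the low one. The number of members per endothelial-gated cell ran from 0.417 to 2.25, with a median of 0.857.

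**Figure D1:**
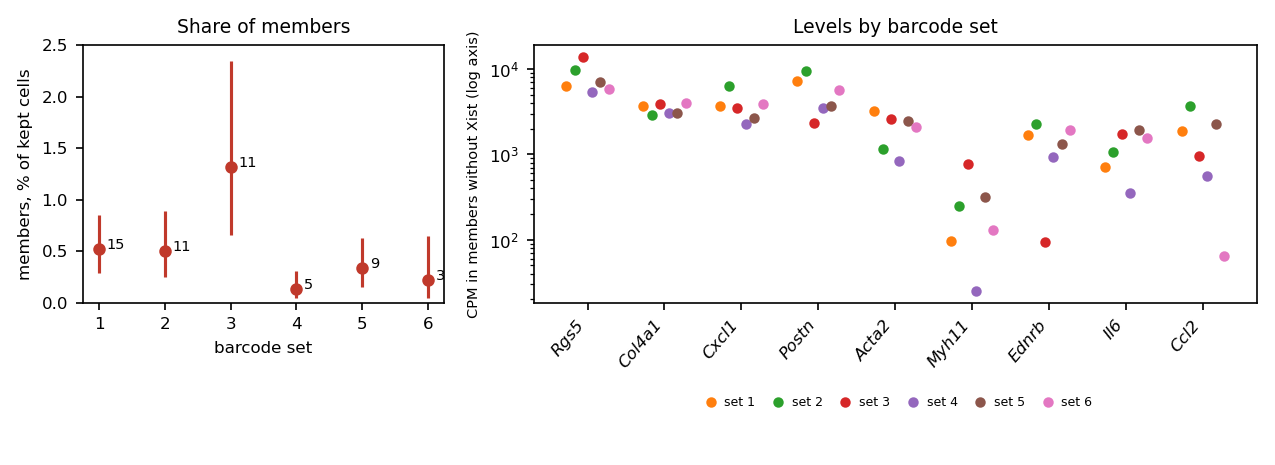
Left: members as a percentage of kept cells in each of the 6 barcode sets, with exact 95% binomial intervals and the number of members beside each point. Right: CPM of 9 genes (log axis) summed over the members without Xist of each set; Col4a1 lies between 2898 and 3989 CPM in every set, while Ednrb is at 93.0 CPM in set 3 and between 929 and 2236 CPM elsewhere.

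The mural genes outside the rule were nearly all far higher in the members than elsewhere. Of 25 such genes, 24 had at least 20 counts in the sums compared, and 23 of these were at 2-fold or more over all other kept cells, against 13.7% of the 16043 genes tested. The median fold was 130 against 0.71 over all genes. None was at 2-fold lower, against 6.89% of all genes. Over fibroblast-gated cells 20 of 21 were at 2-fold or more (background 11.2%, with 8.77% at 2-fold lower), with a median fold of 56.2 against 0.93. Over endothelial-gated cells 17 of 18 were (background 10.7%, with 15.5% at 2-fold lower), with a median of 21.2 against 0.95. These genes are known to go with those of the rule, so the counts describe the gate and lend it no independent support. The same shares of all genes apply to each list below that is compared with these classes.

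Abcc9, which encodes the sulfonylurea receptor SUR2 that pairs with the Kcnj8 channel, stood at 929 CPM (823 to 1045) and was seen in 93.9% of the cells. The barcode sets lay between 663 and 1706 CPM, all above the 106 CPM of endothelial-gated and the 6.02 CPM of fibroblast-gated cells. Pdgfrb, the receptor through which pericytes are recruited, stood at 612 CPM (526 to 707) with sets from 386 to 698 CPM. It was at 108 CPM in fibroblast-gated cells, at 272 CPM in those with a Y-linked transcript, and had 0 counts in endothelial-gated cells, at least 98.3-fold lower. Mcam, the adhesion molecule CD146, stood at 856 CPM and did not mark mural cells alone, since endothelial-gated cells had 604 CPM, a fold of 1.42 (1.19 to 1.68). The stromal transcription factor gene Ebf1 stood at 859 CPM and Gm13889, a small gene often seen in pericytes, at 1508 CPM. Cox4i2, an oxygen-sensitive subunit of cytochrome oxidase, stood at 281 CPM against 1.28 and 4.15 CPM in fibroblast-gated and endothelial-gated cells. P2ry14 and Kcna5, also on the list, had 0 counts.

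**Figure D2:**
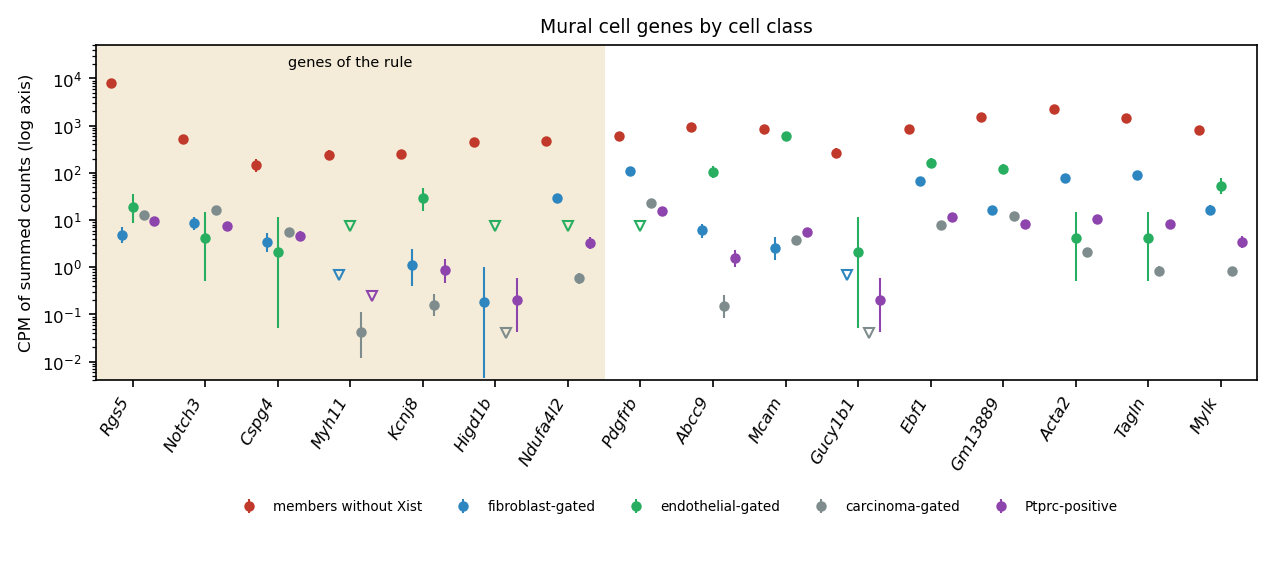
CPM of summed counts (log axis) of the 7 genes of the rule (shaded) and 9 other mural genes in 5 cell classes, with exact 95% Poisson intervals; open triangles mark the upper limit where a class has 0 counts. The members without Xist lie highest for each of the 16 genes, nearest to endothelial-gated cells at Mcam (856 against 604 CPM).

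Contractile genes were the next large group. Of 23 genes, 14 of the 16 tested were at 2-fold or more over all other kept cells (median fold 118), 12 of 14 over fibroblast-gated cells (17.3) and 12 of 13 over endothelial-gated cells (18.8), and none was at 2-fold lower. Acta2, which encodes smooth muscle actin (chromosome 19, 34241090 to 34255590), stood at 2233 CPM (2067 to 2409), with sets from 828 to 3225 CPM and a median of 2261. It was not in every cell: 71.4% had a transcript. Thinned to 2000 UMIs per cell, 70.5% of 44 members did (54.8 to 83.2%, with 5 shallower cells left out), against 5.21% of fibroblast-gated, 3.85% of endothelial-gated and 0.370% of carcinoma-gated cells, whose median depths were 8292, 4758 and 11851.5 UMIs. The actin-binding gene Tagln stood at 1477 CPM, and at 1119 CPM without the cell that held 27.6% of its counts. Cald1 (caldesmon) stood at 2597 CPM and was in every cell. Mylk, the kinase that starts contraction by phosphorylating myosin light chain, stood at 826 CPM, with 16.6 and 53.9 CPM in fibroblast-gated and endothelial-gated cells. Fibroblast-gated cells with a Y-linked transcript held more of these than fibroblast-gated cells as a whole, with Acta2 at 184 CPM and Tagln at 228 CPM against 76.0 and 91.2 CPM, still 12.1-fold and 6.49-fold below the members. Pln and Rergl, genes of mature vascular smooth muscle, had 0 counts, and the smooth muscle coactivator gene Myocd stood at 30.1 CPM (13.8 to 57.1).

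The promoters of 2 contractile genes are shown because they hold the binding motif of a factor known for a mural program. Serum response factor binds the CArG box, which turns on smooth muscle genes, and the Notch effector RBPJ binds TGGGAA. The sequences are the 250 bases before the gene start in RefSeq (GRCm38.p6), with the motif in capitals. Both motifs were searched on both strands, the CArG box only in its exact form CCWWWWWWGG, where W is A or T. Forms with a mismatched base, which the printed Acta2 sequence also holds, were not counted. The Myl9 promoter lies at chr2:156775214-156775463 on the plus strand, with the first base of its CArG box 161 bases before the start. The Acta2 promoter lies at chr19:34255374-34255623 on the minus strand, with the first base of TGGGAA 27 bases before the start.
Myl9: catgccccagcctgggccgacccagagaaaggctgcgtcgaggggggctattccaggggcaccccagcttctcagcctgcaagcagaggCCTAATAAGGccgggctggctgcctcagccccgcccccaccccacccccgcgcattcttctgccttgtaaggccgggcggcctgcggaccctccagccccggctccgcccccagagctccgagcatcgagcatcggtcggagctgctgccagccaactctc
Acta2: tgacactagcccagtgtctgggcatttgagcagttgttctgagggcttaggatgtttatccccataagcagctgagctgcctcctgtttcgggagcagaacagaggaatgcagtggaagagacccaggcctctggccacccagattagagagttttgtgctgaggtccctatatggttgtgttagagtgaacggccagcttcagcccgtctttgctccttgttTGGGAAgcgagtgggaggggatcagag
Of the contractile genes with Myh11, 19 of 24 had a promoter sequence. An exact CArG box was in 2 of these (Myl9 and Rergl), against 1.47% of all 32851 promoters. TGGGAA was in 4 of the 19 (Acta2, Ppp1r12b, Smtn and Tpm1) and in 3 of 12 Notch genes (Hey2, Maml2 and Rbpj), against 21.6% of all promoters. Myl9, the regulatory light chain of smooth muscle myosin, stood at 214 CPM (165 to 273) in the members and at 14.6 and 2.07 CPM in fibroblast-gated and endothelial-gated cells. Rergl, with the same box, had 0 counts in the members. A match is a description of the letters and says nothing of binding.

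Within the members, transcripts of the rule split smooth muscle from pericyte features incompletely. Of the 49 cells, 8 had Myh11 without Kcnj8 or Higd1b (16.3%, 7.32 to 29.7%), 21 had Kcnj8 or Higd1b without Myh11 (42.9%), 17 had both (34.7%) and 3 had neither. The cells with Myh11 only were shallower, with a median of 3014.5 UMIs against 5615, and the part of depth in the missing transcripts was not tested. Between these groups, 6 of 10 contractile genes tested were at 2-fold or more with Myh11 only, against 10.2% of 1526 genes (5.9% at 2-fold lower), and none of the 10 was at 2-fold lower. The median contractile fold was 2.48 against 0.90 over all genes. It rested largely on 1 Myh11-only cell of barcode set 1: without that cell 3 of 9 genes reached 2-fold and the median was 1.48, and without the whole set 2 of 8 did and it was 1.54. Thinned to 2000 UMIs, the median was 1.51.

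Mylk and Tpm1, which encodes a tropomyosin, kept their size without any single cell. Mylk stood 2.70-fold higher (1.78 to 4.02) in the Myh11-only than in the Kcnj8- or Higd1b-only cells, and at 2.19 to 2.98 when each cell was left out in turn. Tpm1 stood 2.27-fold higher, with 2.01 to 2.64 over the cells left out and 1.87 without set 1. Tagln and Acta2 did not keep theirs. Tagln was at 2325 against 508 CPM, a fold of 4.58 (3.18 to 6.56), but 47 of its 58 counts came from the cell named above, without which it stood at 603 CPM, a fold of 1.19 (0.568 to 2.25). Acta2 stood at 3246 against 1065 CPM, a fold of 3.05 (2.30 to 4.02), with 58 of 81 counts from the same cell, and at 1261 CPM without it, a fold of 1.18 (0.728 to 1.84). These intervals include 1. The 17 cells with both kinds of transcript had Acta2 at 3506 CPM and Tagln at 2515 CPM.

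In the other direction, the endothelin receptor gene Ednrb stood at 521 CPM in the Myh11-only cells against 1636 CPM, 3.14-fold lower (1.80 to 5.99). It was 2.62-fold to 4.41-fold lower when each cell was left out in turn, and 2.45-fold to 3.97-fold when each set was. Set 3, whose members held little Ednrb, gave 3 of the 8 Myh11-only cells and 3 of the 21 others. The part of the sets in this fold was not tested. Mcam was 2.08-fold lower (1.12 to 4.27), and 1.83-fold to 3.19-fold lower over the cells left out. Its fold was 0.286 without set 2, but 0.584 (0.241 to 1.22) without set 1. Without 1 Kcnj8- or Higd1b-only cell of set 1 it was 0.546 (0.265 to 1.02). These last 2 intervals include 1. Pdgfrb and Abcc9 had folds of 0.693 (0.320 to 1.34) and 0.741 (0.427 to 1.22), whose intervals include 1. Other lists moved with this split, though no cell or set was left out for their sums. Fibroblast markers summed to 80.2 CPM in the Myh11-only cells against 1319 CPM, with 1 of the 2 tested at 2-fold lower, and proliferation genes to 361 against 1834 CPM, with 2 of 5 at 2-fold lower. Their part in the contrast was not tested.

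**Figure D3:**
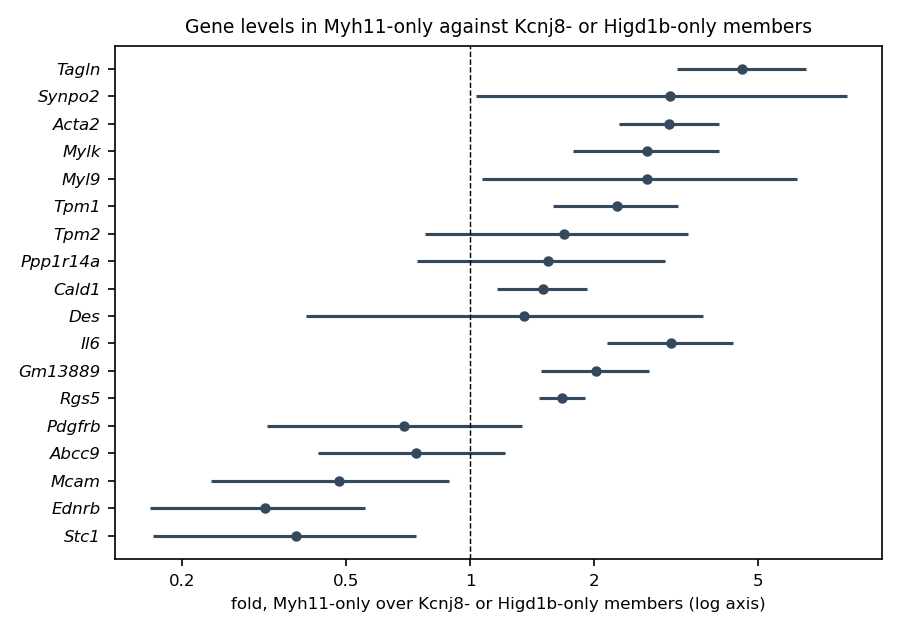
Fold of 18 genes in the 8 Myh11-only members over the 21 Kcnj8- or Higd1b-only members (log axis), from summed counts, with exact 95% intervals for counting error; the dashed line marks equal levels. Mylk (2.70) lies above it, Ednrb (0.318) below it, and the interval of Abcc9 crosses it; Tagln (4.58) and Acta2 (3.05) lie above it through 1 cell, without which their folds were 1.19 and 1.18.

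A split by Acta2 itself, chosen after its values were seen, gave a further contrast. The 35 cells with an Acta2 transcript had a median of 5981 UMIs and the 14 without one 3820. Of 12 contractile genes tested besides Myh11, 8 were at 2-fold or more in the first and 1 at 2-fold lower, Acta2 among the 8 by choice, against 9.75% of 2657 genes, with 7.87% of genes at 2-fold lower. Tagln stood at 1813 against 134 CPM, a fold of 13.6 (6.82 to 31.6), and of 10.3 to 19.6 when each cell was left out in turn. Abcc9 went the other way, at 706 against 1823 CPM (2.58-fold lower, 2.01 to 3.30), as did Kcnj8 at 205 against 418 CPM (2.04-fold, 1.21 to 3.37). Without 1 Acta2-negative cell of set 2, Abcc9 was still 1.98-fold lower and Kcnj8 had a fold of 0.633 (0.362 to 1.16), an interval that includes 1. Cox4i2 was 2.34-fold lower (1.45 to 3.71), but 1.46-fold lower without 1 such cell, at a fold of 0.685 (0.395 to 1.24). The collagen gene Col1a1 was 3.22-fold lower (2.85 to 3.63), with 310 of the 479 counts of the Acta2-negative cells in 1 cell of set 2. Without that cell it stood at 2490 against 3515 CPM, 1.41-fold lower, with a fold of 0.708 (0.596 to 0.845). Rgs5 differed little, with a fold of 0.817 (0.743 to 0.900). Fibroblast markers moved with this split too, at 777 CPM with Acta2 against 2391 CPM without it, 3 of the 3 tested at 2-fold lower. Proliferation genes stood at 1746 against 552 CPM, with 5 of 8 at 2-fold or more. No cell or set was left out for the sums of these lists. Their part in the contrast was not tested. Over the 49 cells, Spearman's rho of Acta2 was 0.763 with Tagln, 0.629 with Mylk and -0.498 with Abcc9. These cells differed in depth, from 1011 to 21627 UMIs, and came from all 6 barcode sets. With depth itself rho was 0.357 for Acta2 and -0.393 for Abcc9.

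**Figure D4:**
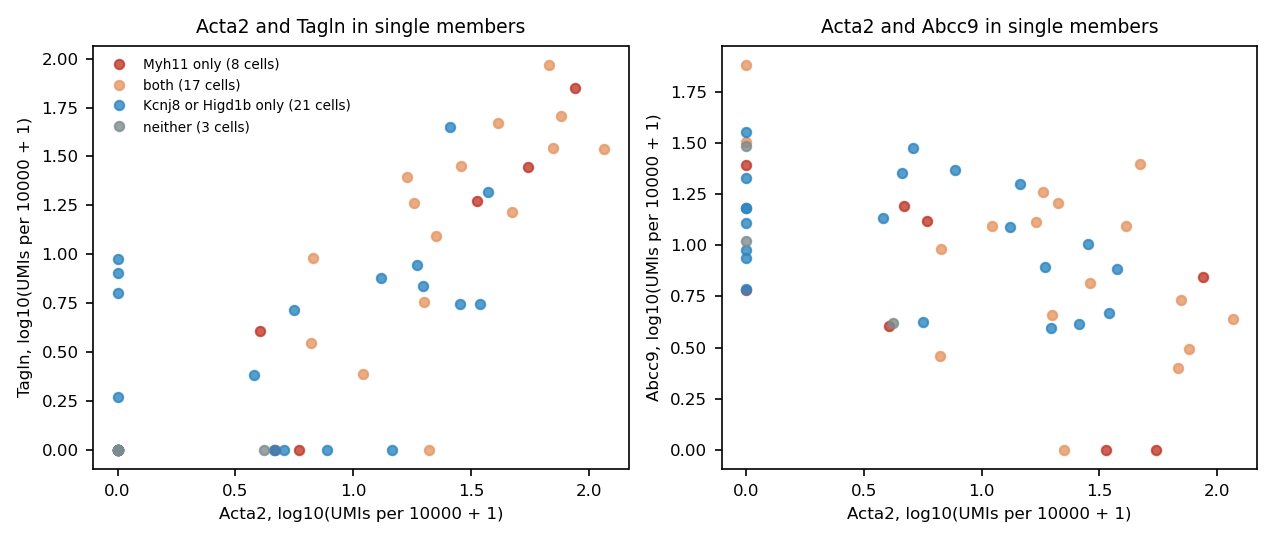
Acta2 against Tagln (left) and against Abcc9 (right) in each of the 49 members without Xist, as log10 of UMIs per 10000 plus 1, coloured by which transcripts of the rule the cell had. Tagln increases along Acta2 (rho 0.763), and the cells with the most Acta2 have little Abcc9 (rho -0.498).

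Receptors and channels for vasoactive signals were high in the members. Of 27 genes, 18 of 20 tested were at 2-fold or more over all other kept cells (median fold 40.4), 17 of 18 over fibroblast-gated cells (25.9) and 14 of 15 over endothelial-gated cells (15.0), with none at 2-fold lower. Ednrb, the type B endothelin receptor (chromosome 14, 103814625 to 103844402), led them at 1434 CPM (1302 to 1576). Endothelial-gated cells had 149 CPM, a fold of 9.60 (7.47 to 12.5), and fibroblast-gated and carcinoma-gated cells 0.365 and 0.488 CPM. Thinned to 2000 UMIs, 65.9% of the members, 23.1% of endothelial-gated and 0.372% of fibroblast-gated cells had a transcript (77.6% of the members unthinned). Its level differed widely between barcode sets: 1686, 2236, 93.0, 929, 1324 and 1930.01 CPM in sets 1 to 6. Set 3, with 9 members without Xist, was far below the rest, and was the set with the most Myh11, at 768 CPM. Ednra, the type A receptor that contracts smooth muscle, stood at 318 CPM (257 to 388) against 35.6 and 4.15 CPM in fibroblast-gated and endothelial-gated cells. Gucy1b1, a subunit of the soluble guanylate cyclase that senses nitric oxide, stood at 267 CPM. It had 0 counts in fibroblast-gated cells, at least 489-fold lower, and 2.07 CPM in endothelial-gated cells. Its partner gene Gucy1a1 stood at 191 CPM, with 0 counts in both. Pde3a, a phosphodiesterase that breaks down cyclic nucleotides, stood at 404.5 CPM. The angiotensin receptor gene Agtr1a was low at 46.8 CPM (25.6 to 78.5), with 0 counts in endothelial-gated cells.

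Basement membrane genes, whose products lie between mural cells and endothelium, were shared with the endothelial-gated cells. Part of them were higher in the members than in the sum of all 60 of those cells. Folds over the 28 of them with a Y-linked transcript are not given here. Of 18 genes, 12 of 18 tested were at 2-fold or more over all other kept cells (1 lower, median fold 6.69). Over fibroblast-gated cells 10 of 16 were (1 lower, 3.94) and over endothelial-gated cells 6 of 14 (2 lower, 1.89). Of all genes 13.7%, 11.2% and 10.7% were at 2-fold or more. The counts lower lay near the shares of all genes, 6.89%, 8.77% and 15.5%. Col4a1, the main type IV collagen chain (chromosome 8, 11198423 to 11312826), stood at 3410 CPM (3204 to 3625). The sets ran from 2898 to 3989 CPM and were among the most even of the genes described. Endothelial-gated cells had 1962 CPM, a fold of 1.74 (1.59 to 1.90), and fibroblast-gated cells 157 CPM. Col4a2, its partner chain, stood at 1317 CPM and followed Col4a1 across cells with a rho of 0.742. Col18a1, from which endostatin is cut, stood at 1083 CPM against 355 CPM in endothelial-gated cells. Sparcl1, a matricellular protein, stood at 1120 CPM against 243 CPM in endothelial-gated and 5.11 CPM in fibroblast-gated cells. Sparc itself, at 7367 CPM, was close to the 6205 CPM of fibroblast-gated cells and below the 9787 CPM of those with a Y-linked transcript.

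Interstitial matrix genes placed the members between fibroblasts and endothelium. Of 20 genes, 15 were at 2-fold or more over all other kept cells (1 lower, median fold 3.62) and 16 of 18 over endothelial-gated cells (none lower, 14.05). Against fibroblast-gated cells 3 were at 2-fold or more and 7 at 2-fold lower, beside 11.2% and 8.77% of all genes, with a median fold of 0.687. The fibrillar collagens were lower than in fibroblasts. Col1a1 stood at 3593 CPM (3382 to 3815) against 7224 CPM in fibroblast-gated cells and 18683 CPM in those with a Y-linked transcript, folds of 0.497 and 0.192. Col3a1 stood at 4402 CPM and Col1a2 at 2490 CPM, with folds over fibroblast-gated cells of 0.484 and 0.469. A single cell held 28.8% of the Col1a1, and the cell with the most Col1a2 held 39.9% of that gene, without which these genes stood at 2661 and 1559 CPM. Postn, which encodes the matrix protein periostin, went the other way, at 5937 CPM (5664 to 6219; sets from 2326 to 9522) against 1188 CPM in fibroblast-gated cells, a fold of 5.00 (4.74 to 5.27). Against fibroblast-gated cells with a Y-linked transcript, at 3416 CPM, that fold was 1.74. Col6a3, a chain of the beaded-filament collagen VI, stood at 2701 CPM against 1188 CPM, a fold of 2.27 (2.11 to 2.45), and of 1.23 over those with a Y-linked transcript. Lum, a small proteoglycan and fibroblast marker, stood at 30.1 CPM against 327 CPM.

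Notch pathway genes other than Notch3 were moderate. Of 15 genes, 8 were at 2-fold or more over all other kept cells (1 lower, median fold 2.41). Over fibroblast-gated cells 5 of 10 were (1 lower, 2.23) and over endothelial-gated cells 3 of 10 (3 lower, 1.62). The shares of all genes were 13.7%, 11.2% and 10.7% at 2-fold or more. At 2-fold lower they were 6.89%, 8.77% and 15.5%, and the counts lower over other kept and fibroblast-gated cells lay near them. The ligand gene Jag1 stood at 167 CPM (124 to 220) against 34.3 and 45.6 CPM in fibroblast-gated and endothelial-gated cells. Among receptors, Notch1 stood at 140.4 CPM, near the 168 CPM of endothelial-gated cells. Of the target genes, Heyl was mural, at 83.6 CPM (54.1 to 123) against 1.82 and 2.07 CPM, whereas Hey1 was endothelial, at 6.69 CPM against 149 CPM. Nrarp, a feedback inhibitor of Notch, stood at 114 CPM against 3.83 and 47.7 CPM. Hes1, a target in many cell types, was at 127 CPM in the members and at 305 CPM in endothelial-gated cells. Rbpj, the DNA-binding effector, was lower than in fibroblast-gated cells, at 154 against 242 CPM (fold 0.636, 0.464 to 0.854).

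Signals between mural cells and endothelium were unevenly placed. Of 30 such genes, 11 were at 2-fold or more and 7 at 2-fold lower over all other kept cells (median fold 1.01). Over fibroblast-gated cells these numbers were 10 and 9 of 25 (0.917), and over endothelial-gated cells 4 and 9 of 20 (0.540). For all genes the shares were 13.7% and 6.89%, 11.2% and 8.77%, and 10.7% and 15.5%, in that order. Pdgfb, the ligand of the receptor PDGFRB, had 0 counts in the members (at most 12.3 CPM) and 158 CPM in endothelial-gated cells. Pdgfa, a ligand of the related receptor PDGFRA, stood at 431 CPM (360.01 to 512) against 139 and 116 CPM in fibroblast-gated and endothelial-gated cells. Tgfb2, a transforming growth factor, stood at 364 CPM (299 to 440) against 108 and 33.2 CPM. Flt1, the VEGF receptor known from endothelium, was at 314 CPM (254 to 385) in the members and at 604 CPM in endothelial-gated cells. Tek, the endothelial angiopoietin receptor, had 0 counts. Vegfa was low, at 46.8 CPM (25.6 to 78.5) against 317 CPM in fibroblast-gated cells. Ccn2, a matricellular growth factor, stood at 244 CPM, and at 148 CPM without the cell that held 41.1% of its counts.

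Adhesion and junction genes were higher in part. Of 15 genes, 7 of 13 tested were at 2-fold or more over all other kept cells (2 lower, median fold 2.92). Over fibroblast-gated cells 6 of 13 were (3 lower, 1.87) and over endothelial-gated cells 6 of 12 (1 lower, 2.67). Shares of all genes were 13.7%, 11.2% and 10.7% at 2-fold or more and 6.89%, 8.77% and 15.5% lower. Itga1, a collagen-binding integrin chain, stood at 976 CPM (867 to 1095) against 90.6 and 127 CPM in fibroblast-gated and endothelial-gated cells. Its partner Itgb1 was broad, at 1267 CPM against 846 and 911 CPM. Of the connexins, which form gap junctions, Gjc1 stood at 572 CPM against 37.2 and 16.6 CPM and Gja4 at 140.4 CPM against 0.365 CPM and 0 counts. Gja1 was low, at 30.1 CPM against 349 and 512 CPM.

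Among 20 transcription factor genes, 12 of 19 tested were at 2-fold or more over all other kept cells (2 lower, median fold 3.69). Over fibroblast-gated cells 9 of 18 were (3 lower, 2.28) and over endothelial-gated cells 6 of 11 (1 lower, 2.53). Shares of all genes were 13.7%, 11.2% and 10.7% at 2-fold or more and 6.89%, 8.77% and 15.5% lower. Prrx1, a mesenchymal homeobox factor, stood at 916 CPM (811 to 1031) against 577 and 60.2 CPM. Nr2f2, the nuclear receptor COUP-TFII known from veins, stood at 535 CPM against 180.1 and 212 CPM. Epas1, which encodes HIF-2alpha, stood at 348 CPM (284 to 421) against 19.7 and 205 CPM, and at 1.01 CPM in carcinoma-gated cells. Mef2c, a muscle factor, stood at 241 CPM, near the 270 CPM of endothelial-gated cells.

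Cytokine and chemokine transcripts were led by the CXC and CC chemokines that other cells of these tumors also held, while Il6 was far above its level in the other classes. Of 18 genes, 6 were at 2-fold or more and 4 at 2-fold lower over all other kept cells (median fold 1.34). Over fibroblast-gated cells 4 and 5 of 18 were (0.923), and over endothelial-gated cells 8 and 0 of 14 (2.81). For all genes the shares were 13.7% and 6.89%, 11.2% and 8.77%, and 10.7% and 15.5%, in that order. Il6, a cytokine that starts the acute phase response (chromosome 5, 30013114 to 30019981), stood at 1080 CPM (965 to 1204). It was at 80.0 CPM in fibroblast-gated, 68.5 CPM in endothelial-gated, 29.3 CPM in carcinoma-gated and 40.1 CPM in Ptprc-positive cells. The fold was 13.5 (11.6 to 15.6) over fibroblast-gated cells, 7.87 over those with a Y-linked transcript, 15.8 (11.01 to 23.3) over endothelial-gated cells and 31.1 over all other kept cells. The barcode sets 1 to 6 stood at 711, 1076, 1744, 351, 1907 and 1544 CPM, each above the pooled level of every other class. Thinned to 2000 UMIs, 59.1% of 44 members had an Il6 transcript (43.2 to 73.7%), and 77.6% unthinned. The thinned share was 12.8% in fibroblast-gated, 13.5% in endothelial-gated, 4.62% in carcinoma-gated and 4.69% in Ptprc-positive cells. Within the members, Il6 was 2.85-fold (1.91 to 4.44) higher in those with Acta2 than without it, with up to 4.60 when each cell was left out in turn, 2.38 without set 2 and 5.38 without set 5. In the Myh11-only cells it was 3.08-fold (2.15 to 4.36) higher than in the Kcnj8- or Higd1b-only cells, but 27 of its 52 counts came from 1 cell of set 3, without which the fold was 1.66 (1.03 to 2.60), at 1125 against 677 CPM.

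The chemokine genes stood closer to their levels in other classes. Cxcl1 stood at 3891 CPM (3671 to 4121), 1.45-fold over fibroblast-gated cells (1.37 to 1.54) and 6.03-fold over endothelial-gated cells (5.32 to 6.86). Cxcl2 stood at 2106 CPM, below the 3857 CPM of Ptprc-positive cells. The monocyte attractant Ccl2 stood at 1875 CPM against 2301 CPM in fibroblast-gated and 2343 CPM in carcinoma-gated cells. It ranged from 64.3 CPM in set 6 to 3660 CPM in set 2, so its level was uneven between sets. Ccl7 stood at 729 CPM, with sets from 50.2 to 1573 CPM. Lif, a cytokine of the same receptor family as Il6, was low at 43.5 CPM (23.1 to 74.3) against 206 CPM in fibroblast-gated cells.

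**Figure D5:**
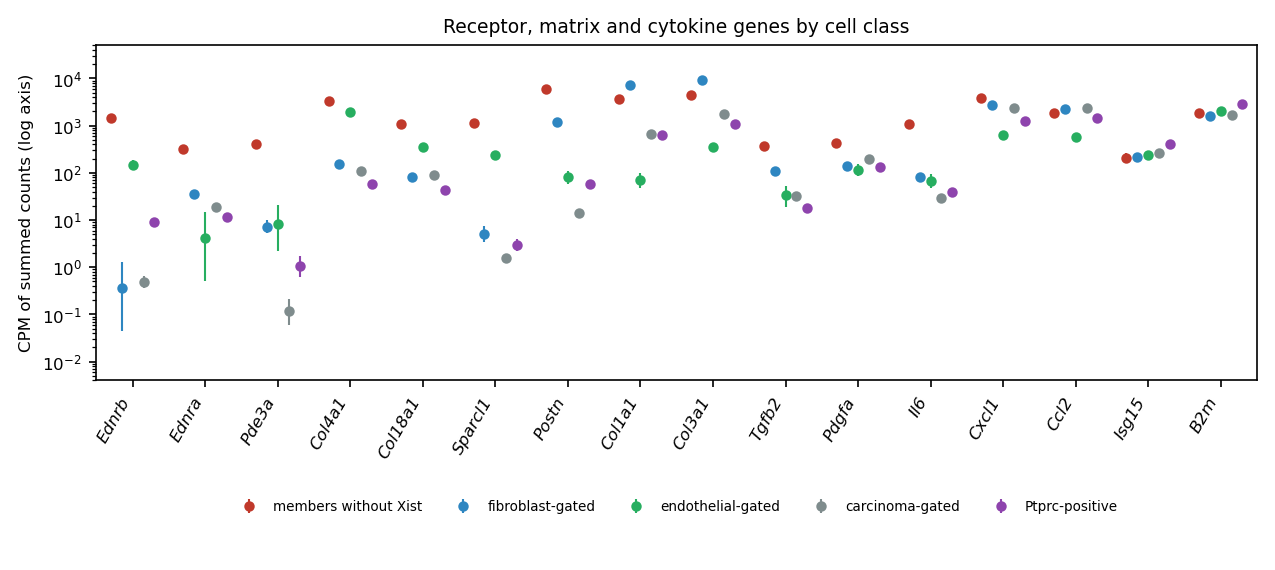
CPM of summed counts (log axis) of 16 receptor, matrix, growth factor, cytokine and interferon-response genes in 5 cell classes, with exact 95% Poisson intervals. The members without Xist are highest at Il6 (1080 CPM) and Ednrb (1434 CPM), below fibroblast-gated cells at Col1a1 and Col3a1, and close to the other classes at Isg15 (211 CPM) and B2m.

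Interferon-response genes were seldom above their levels in other cells. Of 23 genes in the matrix, 1 was at 2-fold or more and 4 at 2-fold lower over all other kept cells, with a median fold of 0.744 against 0.71 over all genes. Over fibroblast-gated cells none was higher and 3 were lower, against 8.77% of genes lower, with a median of 0.879 against 0.93. Over endothelial-gated cells 1 of 22 was higher and 7 were lower, against 15.5% of genes lower, with a median of 0.635 against 0.95. The antigen presentation genes B2m and H2-K1 stood at 1882 and 712 CPM, and Ifitm3, an antiviral membrane protein, at 2286 CPM. H2-K1 was lower than in endothelial-gated cells (1489 CPM, fold 0.478, 0.408 to 0.558). Isg15, an interferon-induced ubiquitin-like protein, stood at 211 CPM (162 to 269) against 215 and 236 CPM, which these intervals do not tell apart.

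Of 14 hypoxia and glycolysis genes, 2 were at 2-fold or more and 2 at 2-fold lower over all other kept cells, against 13.7% and 6.89% of all genes (median fold 0.666). Over fibroblast-gated cells 3 were higher and 4 lower, against 11.2% and 8.77% (0.735), and over endothelial-gated cells 1 of 13 was higher and 2 lower, against 10.7% and 15.5% (0.698). Ldha, which makes lactate, stood at 465 CPM against 556 and 531 CPM in fibroblast-gated and endothelial-gated cells. Of 13 proliferation genes, 1 was at 2-fold or more and 1 at 2-fold lower over all other kept cells (median fold 0.831). Over fibroblast-gated cells 2 of 13 were higher and none lower (1.14), and over endothelial-gated cells 4 of 11 and none (1.39), beside the same shares of all genes. The gene higher over all other kept cells, Mki67, stood at 130.4 CPM (92.7 to 178) and was seen in 20.4% of the members, while Top2a was seen in 16.3%. Immediate-early genes answer to stress and dissociation as well as to growth signals. Over all other kept cells 3 of 12 were at 2-fold or more, beside 13.7% of all genes. None was at 2-fold lower, and the median fold was 1.58. Fosb and Zfp36 stood at 1006 and 1009.5 CPM, with folds of 2.65 and 2.48 over all other kept cells. The 14 members without Acta2 had a summed level of this list of 15385 CPM against 7875 CPM in those with it. In those with it, 6 of the 12 genes were at 2-fold lower and 0 at 2-fold or more, beside 7.87% and 9.75% of all genes. No cell or set was left out for this sum, and the part of cell handling was not tested.

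The genes that encode the targets of the named agents summed to 191 CPM in the members, against 228 CPM in all other kept cells. Fibroblast-gated and endothelial-gated cells had 186 and 180 CPM. Over all other kept cells 1 of 12 was at 2-fold or more and 1 at 2-fold lower, beside 13.7% and 6.89% of all genes. Of 12 such genes in the matrix, 8 had 0 counts, each allowing up to 12.3 CPM: Tlr7, Tlr8, Ido1, Ido2, Arg1, Arg2, Nos2 and Adora3. The share of all genes with 0 counts in the members was not counted beside this. Tgfbr1, the kinase that galunisertib inhibits, stood at 73.5 CPM (46.1 to 111) against 34.3 and 45.6 CPM in fibroblast-gated and endothelial-gated cells. Tnfrsf9, the receptor 4-1BB, stood at 53.5 CPM (30.6 to 86.9) in 12.2% of the cells, and Ddx58, the sensor RIG-I of viral RNA, at 36.8 CPM (18.4 to 65.8). The interval of Tnfrsf9 includes the 41.5 CPM of endothelial-gated cells.

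The smallest folds against the gated classes were of genes that other classes also held. Saa3, an acute phase protein, stood at 10.0 CPM (2.07 to 29.3) against 671 CPM in fibroblast-gated cells. Grem1, Slpi, Tac1 and Crabp1 were also far lower, at 6.69, 6.69, 3.34 and 50.1 CPM against 378, 278, 272 and 1648 CPM. Carcinoma-gated cells held these last 4 genes at 317, 287, 220.2 and 1512 CPM, and the part of carcinoma cells in the fibroblast-gated levels was not tested. Mesenchymal carcinoma markers, Tac1 among them, summed to 451 CPM in fibroblast-gated cells and to 116 CPM in those with a Y-linked transcript. Against endothelial-gated cells Ctla2a and Ccl21a had 0 counts in the members, at 1645 and 1359 CPM in the former, beside the excluded Cdh5 and Pecam1. Tac1 was at 1155 CPM in endothelial-gated cells, whose sum held 3309 CPM of the mesenchymal carcinoma markers. Those of them with a Y-linked transcript held 112 CPM of these markers.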

How the data were processed

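Live cells of 6 MOC-2 tumors were measured by droplet 3' RNA sequencing. All tumors share 1 deposited matrix of raw UMI counts per gene and cell (32285 genes, 12 tags, 14818 cells). Its file header names Cell Ranger 7.0.0, per the file headers, whereas the submitters' processing notes list Cell Ranger 7.1 and mm10, and the series' design text Seurat 4.1.0. Filters and normalization before deposit are not given in the sources used here. A repeat of the deposited barcodes across sets was found for 0 of 14818.

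The members and gene lists were chosen with earlier results of these data known. The UMIs of each class were added up and expressed as CPM, with exact 95% Poisson intervals for CPM, exact 95% binomial (Clopper-Pearson) intervals for shares and exact conditional intervals for folds (Python 3.11.15, numpy 2.4.6, scipy 1.17.1, pandas 2.3.3). A fold is the ratio of CPM; for the counts of genes at 2-fold, a floor of 3 counts was set in the reference and at least 20 counts in both sums together were asked for. Where the reference had 0 counts, the bound against 3 counts over the class is given. Shares were thinned to 2000 UMIs per cell. Doublet scores came from scrublet (scanpy 1.11.5; expected rate 6%); no cell was removed, and 267 kept cells scored 0.25 or more. Counts of members over fibroblast-gated cells were also simulated, as Poisson draws around summed means without differences between cells. Estimated over true folds had a median of 0.991 for the 100 genes set to 4-fold and 0.986 for the 100 set to 0.25-fold. Of the intervals, 93.5% held the true fold. Genes with much of their count in a single cell were not simulated, so this coverage does not extend to them.

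The genes named were the 7 of the rule and the 5 excluded, up to 5 of each of 15 lists with the highest CPM (at least 10 counts), the 20 outside the lists with the largest fold over all other kept cells (in at least 20% of members, at least 20 counts), Xist and 4 Y-linked genes, and the 5 genes with the largest and the smallest fold over each gated class (at least 100 counts). Others, chosen after their values were seen, are Myl9, Myocd, Pln, Rergl, P2ry14, Kcna5, Gucy1a1, Agtr1a, Heyl, Hey1, Pdgfb, Tek, Vegfa, Lum, Gja4, Gja1, Lif, Isg15, Fabp4 and the agent targets at 0, as were the Acta2 split, the carcinoma gate and the subset with Y-linked transcripts. Gene positions are from GENCODE M21, which held 32235 of the genes. Alternatives tried were the number of markers asked for, thinning, a Y-linked transcript in place of the absence of Xist, 5 CPM added to each level, cells weighted equally, leaving out each barcode set and, added later, a minimum of counts in the members and leaving out the leading cell of a gene and, for folds between groups of members, each cell and each set in turn.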

Additional observations from a re-analysis of the deposited data

How the results depend on the processing

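No paired analysis was possible because no label ties a barcode set to a numbered tumor, and no test was made. With at least 2 markers asked for, members made up 1.51% of kept cells and 32.7% of them had no Xist. That share was 97.7% after thinning to 2000 UMIs and 51.9% when a Y-linked transcript was asked for. Genes at 2-fold or more over all other kept cells numbered 2203, 1235 with 5 CPM added, and 865 with at least 10 counts in the members. Over fibroblast-gated cells the 1189 became 728 after thinning and 696 with 10 counts, and over endothelial-gated cells the 609 became 249 after thinning. The Myh11-only share was 7.14% when a Y-linked transcript was asked for, and the contractile median 1.51 after thinning. Leaving out each barcode set gave 0.332 to 0.491% for the share of members, 88.9 to 93.0% without Xist, 2130 to 2274, 1123 to 1215 and 517 to 637 genes over the other, fibroblast-gated and endothelial-gated cells, 12.5 to 19.4% Myh11-only and a contractile median of 1.54 to 2.83, lowest without set 1. Few cells (49) and counts limit the low genes.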

Other observations

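Genes outside all lists pointed to further features of the members. Meg3 and Rian, noncoding RNAs of one imprinted locus, stood at 1431 CPM (1298 to 1573) and 709 CPM (616 to 811). They were at 204 and 74.8 CPM in fibroblast-gated cells and at 575 and 204 CPM in those with a Y-linked transcript, but at 2.07 CPM each in endothelial-gated cells and at 1.67 and 0.477 CPM in carcinoma-gated cells. Both were seen in 87.8% of the members. Enpep and Aoc3, ectoenzymes known from vessel walls that cleave angiotensin and oxidise amines, stood at 117 and 184 CPM, with 0 counts and 2.07 CPM in endothelial-gated cells. Ggt5, which acts on leukotrienes and glutathione, stood at 127 CPM against 4.56 and 2.07 CPM in fibroblast-gated and endothelial-gated cells. Cygb, a globin of stromal cells, stood at 364 CPM against 18.8 and 4.15 CPM. The potassium channel subunit gene Kcne4 stood at 274 CPM with 0 counts in endothelial-gated cells, at least 44.0-fold lower.

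Others of these genes were shared with endothelium. Adgrf5, an adhesion receptor, stood at 364 CPM against 367 CPM in endothelial-gated cells (fold 0.992, 0.774 to 1.27) and 0.912 CPM in fibroblast-gated cells. Apold1, an endothelial early response gene, stood at 595 CPM against 307 CPM, Adamts9, a matrix protease, at 388 against 129 CPM, and Stc1, a secreted glycoprotein, at 665 against 168 CPM. Tspan15 and Filip1 stood at 100.3 and 66.9 CPM against 76.8 and 39.4 CPM, and the homeobox gene Meox2 at 93.6 against 43.6 CPM. Plxdc2 stood at 160.5 CPM, Sept4 at 110.3, B830012L14Rik at 90.3, Naalad2 at 86.9 and the transporter gene Slc16a12 at 76.9 CPM. H2-M9, an unusual MHC class I gene, had the largest fold of this group over all other kept cells, 1687, from 120.3 CPM in 32.7% of the members, with sets from 0 to 224 CPM. Near-identical class I genes share reads, so its value is uncertain.

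Fabp4, a fatty acid carrier known from adipocytes and capillary endothelium, stood at 1792 CPM in the members, 1025 CPM in endothelial-gated and 22.2 CPM in fibroblast-gated cells, while the adipocyte genes Adipoq, Plin1 and Cidec had 0 counts. Thinned to 2000 UMIs, 72.7% of the members (57.2 to 85.0%; 73.5% unthinned), 36.5% of endothelial-gated and 0.118% of carcinoma-gated cells had a Fabp4 transcript. It was 5.33-fold higher (3.54 to 8.40) in members with Acta2 than in those without, and 3.54-fold to 9.43-fold when each barcode set was left out in turn, lowest without set 5 and highest without set 1. The 5 members with Xist held 2419 CPM of Rgs5 against 7992 CPM in the others, and 942 CPM of Xist. Of these 5 cells, 2 also had a Y-linked transcript.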
